A study of Mus musculus with 12 samples.

Results

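The dopamine D2 receptor gene, Drd2, and the somatostatin receptor genes, Sstr1 to Sstr5, were followed through normal pituitary and the pituitary tumors of POMC knockout (POMC KO) mice. Of 45037 probe sets that are not controls, all 8 were taken for which the platform annotation names exactly 1 gene, that gene being 1 of these 6. On the whole array 34945 probe sets name 1 gene, and they cover 18193 genes. The choice of the 8 probe sets rests on gene names, and the genes were picked with earlier results of these data known. Sstr3 and Sstr4 have 2 probe sets each, and the other 4 genes have 1 each.

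The data are 12 arrays of the Affymetrix type Mouse Genome 430 2.0, which read each transcript by hybridization to a set of oligonucleotide probes. Tissue of heterozygous POMC KO mice was on 8 arrays, tissue of homozygous POMC KO mice on 2 and normal mouse pituitary on 2. The labels call all of it pituitary tissue with no treatment, the study's methods describe the KO tissue as spontaneous pituitary tumor, and age, sex and strain are not given in the labels. The KO is inherited, so every cell of the animal carries it, and the pituitary tumors arise in glands that also hold other hormone cells. The tumor arrays fell into 5 numbered pairs that were as alike as repeat arrays (r = 0.9970 to 0.9978, at most 4 probe sets over 2-fold apart), whereas heterozygous arrays of different pairs differed at 433 to 982 probe sets and the 2 normal arrays at 309. Each pair was averaged and counted as 1 sample, which left 4 heterozygous samples, 1 homozygous sample and 2 normal samples. The series description counts 1 mouse for each array, whereas the methods name pooled normal pituitary as the reference, so what the normal arrays hold is not settled and p-values measure the spread between these samples only. The targeted gene matched the homozygous label: the log2 signal of Pomc (1433800_a_at) was 15.09 ± 0.02 (SD, n = 2) in normal pituitary, 15.25 ± 0.07 (SD, n = 4) in heterozygous samples and 7.18 in the homozygous one. The heterozygous samples were not lower than normal pituitary, so the Pomc signal does not show the heterozygous label. Xist, the RNA made from the inactive X chromosome of female cells, was low (log2 signal 4.57 to 5.07) in both normal samples and in heterozygous samples 1-2 and 5-6, and high (10.93 to 11.25) in heterozygous samples 3-4 and 7-8 and in the homozygous sample.

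The D2 receptor and the somatostatin receptors are G protein-coupled receptors that act through inhibitory G proteins: they lower adenylyl cyclase activity, open inwardly rectifying potassium channels and so restrain hormone release and growth of pituitary cells. Dopamine from the hypothalamus holds back lactotrophs and the melanotrophs of the intermediate lobe through D2, and somatostatin holds back growth hormone and thyrotropin release through its receptors. D2 is the target of cabergoline and bromocriptine, SSTR2 and SSTR5 are the main targets of octreotide-like drugs, and chimeric dopamine-somatostatin compounds such as TBR-760 were made to engage D2 and SSTR2 together.

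Most of the somatostatin receptor probe sets stood apart from normal pituitary in heterozygous tumors, and they did so in both directions. Sstr1 and 1 of the 2 Sstr4 probe sets were higher, and Sstr2, 1 of the 2 Sstr3 probe sets and Sstr5 were lower. Drd2, above the median of all values on all 12 arrays, was not called in this comparison. With no filter on low values, so that all 8 probe sets were tested, 5 of 8 (62.5%; 2 higher and 3 lower) had an adjusted p under 0.05 from limma and a difference over 2-fold, against 5.2% of all 45037 probe sets (2.78% higher and 2.41% lower). The homozygous sample had 2 of 8 called against normal pituitary, both lower, against 1.41% of all probe sets in either direction and 0.724% lower. The median log2 difference of the 8 was -0.61 for heterozygous tumors and -0.48 for the homozygous sample. Both comparisons use the same 2 normal samples, so their values are set side by side below and not counted as separate evidence. A filter that kept probe sets reaching the overall median (log2 5.74) on at least 2 arrays left 7 of the 8 among 24486 tested, and it called 8.68% of those for heterozygous tumors and 2.33% for the homozygous sample. Both Sstr3 probe sets and Sstr5 passed it through the normal arrays only, and Sstr1 through the 10 tumor arrays only. The values that follow come from the filtered fit unless stated. With no filter the same probe sets were called. Their adjusted p from limma in heterozygous tumors was then 0.00617 for Sstr1, 0.000379 for Sstr3 1441603_at and 0.0005 for Sstr5. In whole tissue, fewer cells of a type and less RNA per cell cannot be told apart.

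**Figure D1:**
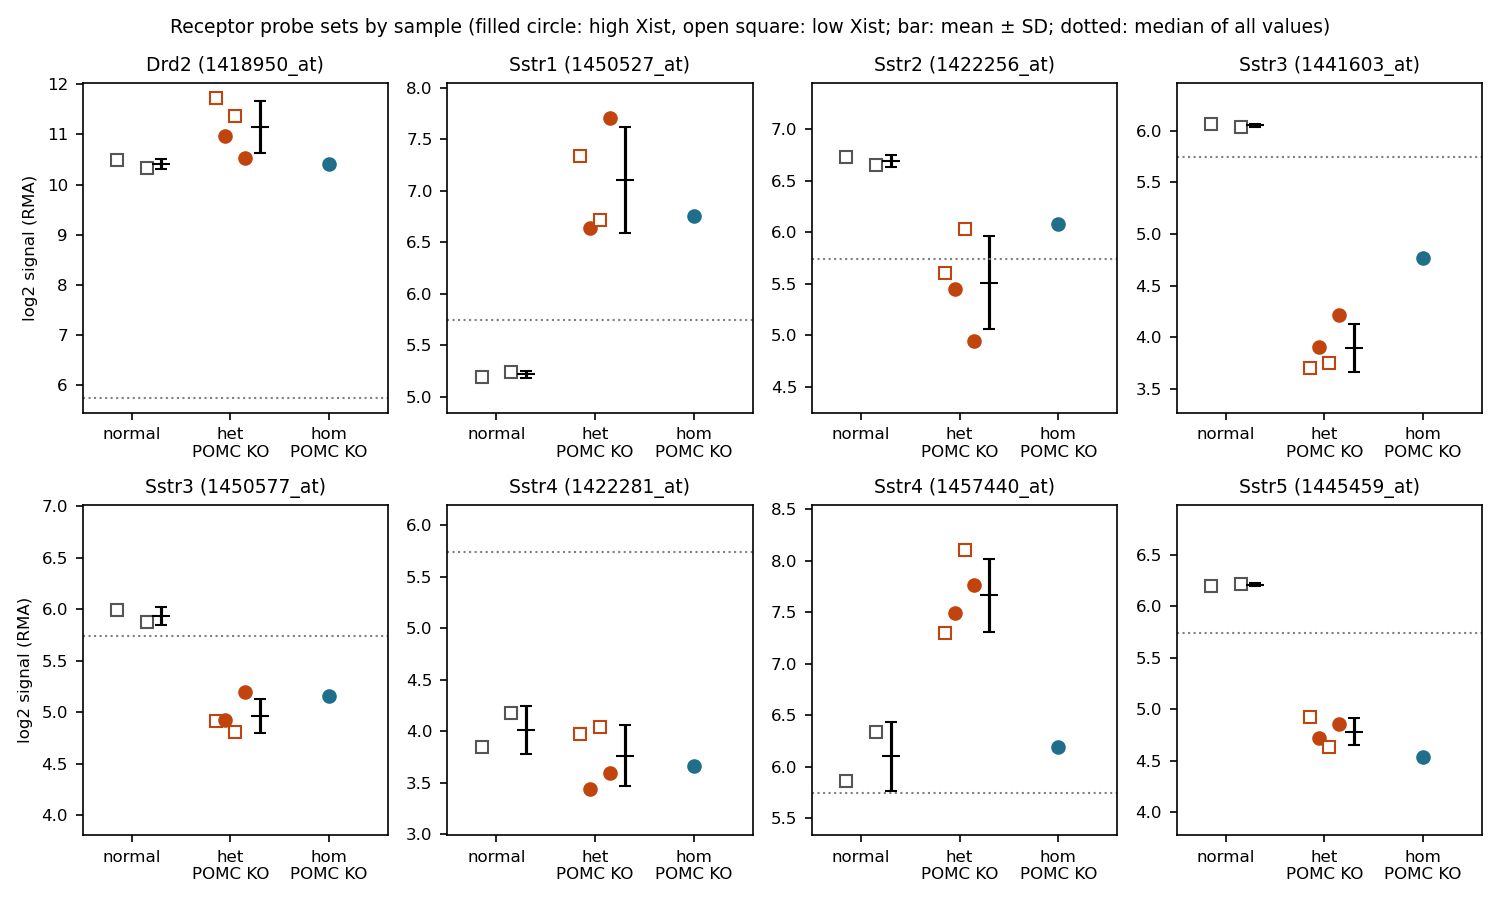
Log2 signal (vertical axis, RMA) of each of the 8 receptor probe sets in normal pituitary, heterozygous and homozygous POMC KO tumors (horizontal axis). Each point is 1 sample, open squares have low Xist and filled circles high Xist, the bars are mean ± SD (n = 2 normal, n = 4 heterozygous), the dotted line is the median of all values and each panel has its own range. The heterozygous points of Sstr1 and of Sstr4 1457440_at lie above both normal points, and those of Sstr2, Sstr3 and Sstr5 lie below them.

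Drd2 (1418950_at) was well expressed in every sample, and its difference in heterozygous tumors fell short of both thresholds. The log2 signal was 11.73, 10.97, 11.37 and 10.52 in heterozygous samples 1-2, 3-4, 5-6 and 7-8, 10.42 in the homozygous sample, and 10.49 and 10.34 in the 2 normal samples. All 4 heterozygous samples lay above both normal samples, the lowest of them by little, and the homozygous sample lay between the 2 normal samples. The heterozygous mean was 11.15 ± 0.52 (SD, n = 4) and the normal mean 10.41 ± 0.11 (SD, n = 2), a log2 difference of 0.74 (95% interval 0.019 to 1.45), or 1.66-fold, with an unadjusted p of 0.0455 and an adjusted p of 0.127 from limma. The homozygous sample differed from normal by 0.0054 (-1.01 to 1.02, adjusted p = 0.997) and from the heterozygous tumors by -0.73 (-1.65 to 0.19, adjusted p = 0.670). These intervals leave room for a 2-fold difference either way between the homozygous sample and normal pituitary. The order of the means was heterozygous, homozygous, normal, and no step between neighbours was called. The 2 arrays of a pair differed by at most 0.047 for Drd2, so the range of 1.21 among heterozygous samples lay between pairs.

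Within the heterozygous tumors Drd2 went with Xist. The 2 samples with low Xist averaged 11.55 and the 2 with high Xist 10.75. Against the normal samples, which both had low Xist, the low-Xist heterozygous samples were 1.14 higher on the log2 scale (SE 0.20, adjusted p = 0.00986 from limma), and with the Xist level as a covariate the difference was 1.14 (SE 0.19, adjusted p = 0.00799). Drd2 was called in these settings and with the array number as a replicate block, and in none of the other 15 of 18 alternatives. That block in effect sets heterozygous sample 1-2 alone, the highest for Drd2, against the normal samples. The contrast among low-Xist samples was chosen after the data were seen and has 2 samples on each side. The covariate fit takes its Xist slope almost wholly from the split among heterozygous samples, so these 2 settings are not separate evidence. The part of sex in the Drd2 level was not tested.

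Sstr2 (1422256_at), the receptor that TBR-760 engages together with D2, was lower in heterozygous tumors. Its log2 signal was 5.61, 5.45, 6.03 and 4.95 in the heterozygous samples, 6.08 in the homozygous sample, and 6.73 and 6.65 in the normal samples. Every tumor sample lay below both normal samples, and the homozygous sample lay just above the highest heterozygous one. The means were 5.51 ± 0.45 (SD, n = 4) and 6.69 ± 0.06 (SD, n = 2), a log2 difference of -1.18 (95% interval -1.81 to -0.55), or 2.27-fold lower, with an adjusted p of 0.0198 from limma. Only 2 of 8 heterozygous arrays reached the median of all values. With no detection calls used, the size of this fold is less certain than its direction. The homozygous sample differed from normal by -0.61 (-1.49 to 0.28, adjusted p = 0.452). In order the groups were normal, homozygous and heterozygous, and with 1 homozygous sample neither step was called.

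The Sstr2 call was the least stable of the 5. The low-Xist heterozygous samples averaged 5.82 and the high-Xist ones 5.20, and against the normal samples the low-Xist ones differed by -0.87 (SE 0.22, adjusted p = 0.0328 from limma), which is under 2-fold. The difference was -0.88 (adjusted p = 0.0323) with Xist as a covariate and -0.99 (adjusted p = 0.0125) without heterozygous sample 7-8, again under 2-fold. Without normal sample 1 it was -1.14 (adjusted p = 0.123), without normal sample 2 it was -1.22 (adjusted p = 0.0957), and a one-way test over the 3 genotypes gave an adjusted p of 0.0528. The sign did not change in any of 18 alternatives, in which the difference ran from -1.35 to -0.87.

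**Figure D2:**
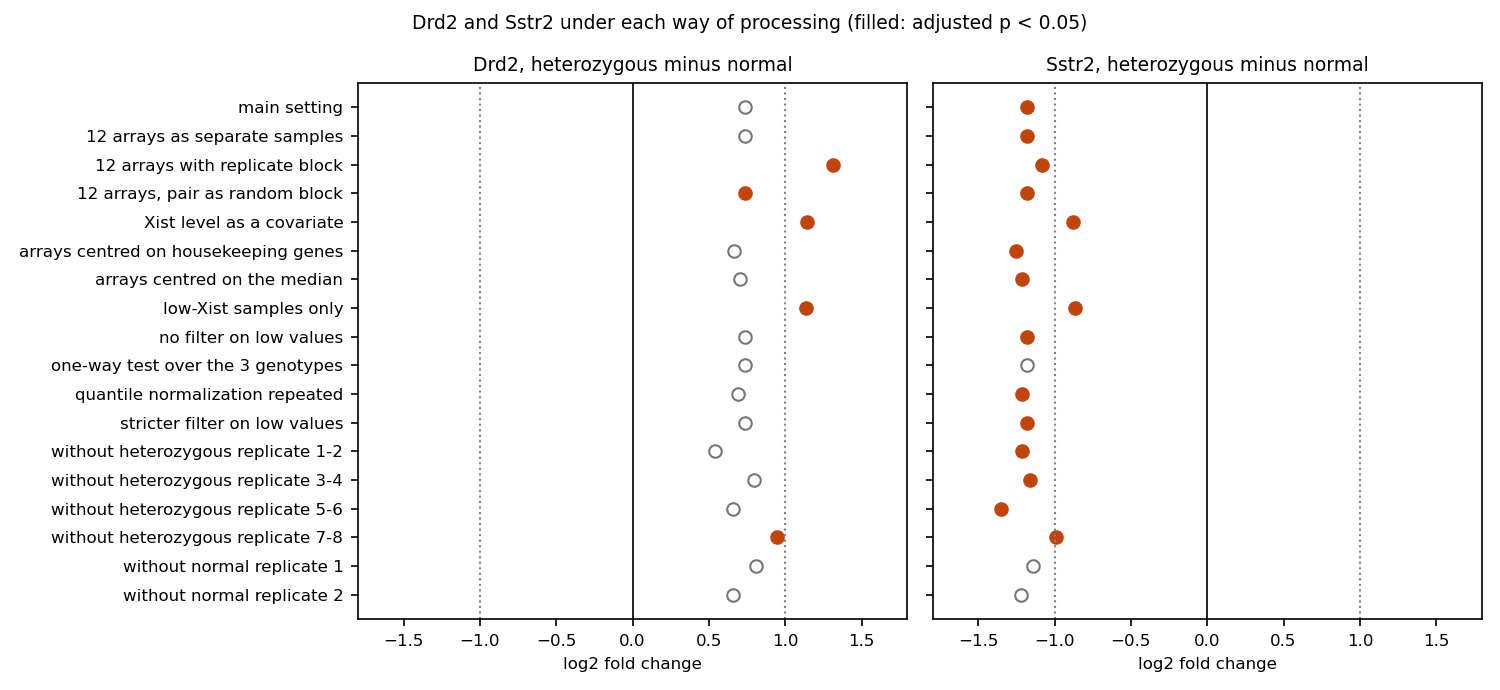
Log2 difference between heterozygous tumors and normal pituitary (horizontal axis) for Drd2 (left) and Sstr2 (right) under the main setting and the alternatives (vertical axis). Filled points have an adjusted p under 0.05 and dotted lines mark 2-fold. Drd2 passed 2-fold with the array number as a replicate block, with Xist as a covariate and among low-Xist samples, which are settings in which Sstr2 moved towards 0.

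Sequence upstream of these genes is shown because Drd2 and Sstr2, the paired targets of the chimeric compounds, and Sstr3, which was lower in all tumor samples by both of its probe sets, are central to the results, and because cyclic AMP, the messenger these receptors lower, acts on transcription through cAMP response elements. The windows are the 250 bases before a transcription start in RefSeq on GRCm38.p6, read 5' to 3' along the gene. Capitals mark TGACG, the core of the cAMP response element, on either strand, and the full element, TGACGTCA, holds 2 overlapping cores.
Drd2, chr9:49340153-49340402, plus strand: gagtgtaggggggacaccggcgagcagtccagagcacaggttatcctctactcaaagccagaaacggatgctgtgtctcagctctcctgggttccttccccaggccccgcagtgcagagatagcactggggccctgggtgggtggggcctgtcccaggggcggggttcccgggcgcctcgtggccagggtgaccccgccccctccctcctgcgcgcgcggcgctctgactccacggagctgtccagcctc
Sstr2, chr11:113619077-113619326, plus strand: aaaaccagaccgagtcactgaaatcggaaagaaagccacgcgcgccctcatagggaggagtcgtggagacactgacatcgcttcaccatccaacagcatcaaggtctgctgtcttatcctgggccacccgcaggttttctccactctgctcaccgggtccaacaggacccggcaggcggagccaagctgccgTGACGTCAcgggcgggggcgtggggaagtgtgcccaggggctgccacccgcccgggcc
Sstr3, chr15:78544346-78544595, minus strand: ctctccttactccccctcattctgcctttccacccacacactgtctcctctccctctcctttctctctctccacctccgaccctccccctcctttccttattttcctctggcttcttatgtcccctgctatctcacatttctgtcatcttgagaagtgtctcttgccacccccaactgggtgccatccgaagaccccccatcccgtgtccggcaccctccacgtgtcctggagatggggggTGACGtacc
The Sstr2 window held 1 full element, whose 2 cores begin 58 and 55 bases before the start, and such an element is in 1.55% of all 32851 windows of this length. The Sstr3 window held 1 core 9 bases before the start, a motif found in 17.8% of windows, and a second Sstr3 window, at another start, had none. The Drd2 window had no core and 2 GC boxes (GGGCGG on either strand, in 32.7% of windows), and the Sstr2 window also had 2. The Sstr4 window had neither motif. Of TAATCC, the core bound by PITX factors of the pituitary and in 6.25% of windows, there was none in these 5 windows. Windows matched for 4 of the 6 genes. A match describes letters only.

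Sstr3 lay lower in every tumor sample than in normal pituitary by both of its probe sets, of which 1 passed the thresholds. The probe set 1441603_at, designed from an expressed sequence tag, gave 3.70, 3.91, 3.75 and 4.21 in the heterozygous samples, 4.76 in the homozygous sample, and 6.07 and 6.04 in the normal samples. All tumor samples lay at least 1 unit below the normal samples, and the homozygous one lay above all 4 heterozygous ones. The difference was -2.16 for heterozygous tumors (SE 0.16, 4.47-fold lower, adjusted p = 0.000387 from limma) and -1.29 for the homozygous sample (SE 0.23, 2.44-fold lower, adjusted p = 0.0369). All tumor values of this probe set lay under the median of all values, and with no detection calls used it is not known whether they were above background, so the size of the fold is less certain than its direction. The probe set 1450577_at, designed from the RefSeq transcript, gave 4.92, 4.92, 4.81 and 5.20 in the heterozygous samples, 5.16 in the homozygous sample, and a mean of 5.94 ± 0.09 (SD, n = 2) in normal pituitary. All tumor samples again lay below both normal samples, and the homozygous sample lay inside the heterozygous range. The difference was -0.97 in heterozygous tumors (SE 0.14, 1.96-fold lower, adjusted p = 0.00320), which passed the p threshold and fell just short of 2-fold. In the homozygous sample the second probe set differed by -0.78 (SE 0.19, adjusted p = 0.0903). Both probe sets ran in parallel over the 7 samples (r = 0.978), and the mean of both as 1 gene gave -1.57 for heterozygous tumors (adjusted p = 0.000711) and -1.03 for the homozygous sample (adjusted p = 0.0501). Normal pituitary was above the homozygous sample and that above the heterozygous tumors for both, and the last step was not called (0.87 for 1441603_at, 95% interval 0.38 to 1.36, adjusted p = 0.236).

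Sstr5 (1445459_at), a receptor of growth hormone and corticotropin cells and the target of pasireotide-like drugs, was lower in tumors of both genotypes. The log2 signal was 4.92, 4.72, 4.63 and 4.86 in heterozygous samples, 4.54 in the homozygous sample, and 6.20 and 6.22 in normal samples. All 5 tumor samples were under the median of all values and both normal samples above it. The probe set, the only one for Sstr5, was designed from an expressed sequence tag. Since detection calls were not used, the size of the fold is less certain than its direction. The heterozygous mean of 4.78 ± 0.13 (SD, n = 4) lay below the normal mean of 6.21 ± 0.01 (SD, n = 2), a log2 difference of -1.42 (SE 0.12, 2.68-fold lower, adjusted p = 0.000548 from limma), and the homozygous sample differed by -1.67 (SE 0.17, 3.18-fold lower, adjusted p = 0.00899). Unlike Sstr2 and Sstr3, the homozygous sample had the lowest value, and its difference from the heterozygous tumors, -0.25 (95% interval -0.61 to 0.12, adjusted p = 0.744), was not called. The low- and high-Xist heterozygous means, 4.78 and 4.79, were alike for Sstr5. Without either normal sample the homozygous values of Sstr3 1441603_at (-1.28 and -1.30, adjusted p = 0.135 and 0.133) and Sstr5 (-1.68 and -1.66, adjusted p = 0.0582 each) no longer passed, and neither did Sstr3 without heterozygous sample 3-4 (adjusted p = 0.0726).

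Sstr1 (1450527_at), a receptor that octreotide-like drugs bind weakly, had the largest increase of the 8 probe sets in heterozygous tumors. Its log2 signal was 7.34, 6.64, 6.72 and 7.71 in heterozygous samples, 6.76 in the homozygous sample, and 5.19 and 5.24 in normal samples. All 5 tumor samples lay above the median of all values and both normal samples under it. Without detection calls for the normal samples, the size of the fold is less certain than its direction. The difference was 1.88 in heterozygous tumors (95% interval 1.18 to 2.59, 3.69-fold higher, adjusted p = 0.00519 from limma). In the homozygous sample it was 1.54 (0.55 to 2.53), 2.91-fold, but with 1 sample the adjusted p was 0.115 and the probe set was not called. The homozygous sample lay inside the heterozygous range, and the difference between the genotypes was -0.34 (-1.25 to 0.56, adjusted p = 0.913). In heterozygous tumors the difference passed both thresholds in all 18 alternatives, which ran from 1.68 to 2.12.

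Sstr4 gave 2 different answers. The probe set 1457440_at, designed from an expressed sequence tag, gave 7.29, 7.49, 8.11 and 7.76 in heterozygous samples, 6.19 in the homozygous sample, and 5.87 and 6.34 in normal samples. All heterozygous samples lay above the other 3 samples, and the homozygous sample lay between the normal samples. Against normal it was 1.56 higher for heterozygous tumors (95% interval 0.99 to 2.13, 2.95-fold, adjusted p = 0.00471 from limma) and differed by 0.090 for the homozygous sample (-0.71 to 0.89, adjusted p = 0.921). The direct difference of homozygous from heterozygous was -1.47 (-2.21 to -0.74), with an unadjusted p of 0.00195 and an adjusted p of 0.193, so it was not called. The probe set 1422281_at, designed from the RefSeq transcript, was under the median of all values on all 12 arrays, with 3.77 ± 0.29 (SD, n = 4) in heterozygous tumors, 4.01 ± 0.23 (SD, n = 2) in normal pituitary and 3.66 in the homozygous sample. Tested without the filter it differed by -0.25 for heterozygous tumors (adjusted p = 0.461) and -0.35 for the homozygous sample (adjusted p = 0.631). The 2 probe sets did not run in parallel (r = -0.146 over 7 samples), and their mean as 1 gene differed by 0.66 in heterozygous tumors (adjusted p = 0.0504). The increase of Sstr4 thus rests on 1457440_at alone, and without normal sample 1 its adjusted p was 0.0520.

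No receptor was called between the genotypes: 0 of 8 probe sets passed in the homozygous sample against heterozygous tumors by limma with no filter, where 0.215% of all probe sets did. At an unadjusted p under 0.05 there were 2 of 8, Sstr3 1441603_at and Sstr4 1457440_at, against 7.96% of all. The homozygous side holds 1 sample, assumed to vary as the others do, and the intervals for Drd2, Sstr1 and Sstr2 all include a 2-fold difference. Among the samples with high Xist, the homozygous sample differed from the 2 heterozygous ones by -0.33 for Drd2 (adjusted p = 0.872), 0.88 for Sstr2 (adjusted p = 0.377) and -1.43 for Sstr4 1457440_at (adjusted p = 0.278).

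**Figure D3:**
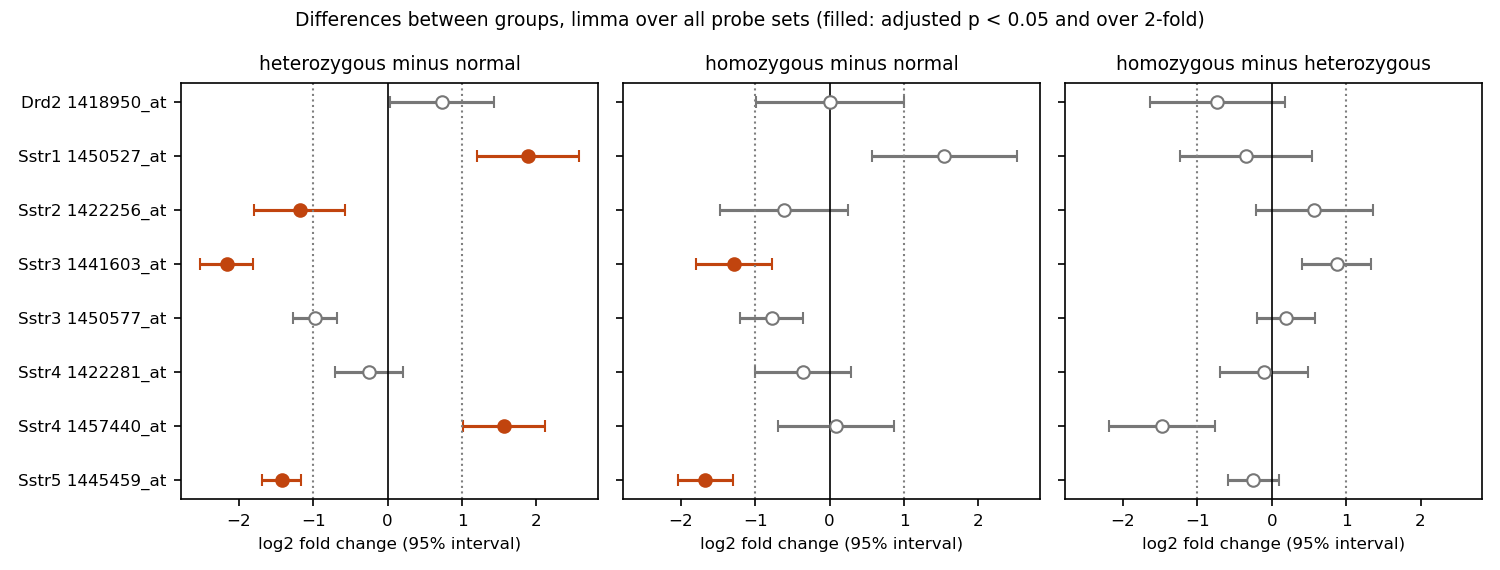
Log2 difference with its 95% interval (horizontal axis) of each receptor probe set (vertical axis) for the 3 comparisons. Filled points have an adjusted p under 0.05 and a difference over 2-fold, and dotted lines mark 2-fold. All points are from the fit with no filter, whereas most intervals in the text are from the filtered fit. In heterozygous tumors 2 probe sets are called higher and 3 lower, in the homozygous sample 2 lower, and between the genotypes none.

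Over the 7 samples some receptors ran in parallel and others in opposite directions. Sstr3 and Sstr5 ran together (r = 0.939), Sstr1 ran against Sstr2 (r = -0.916), and Drd2 ran with none of them as closely (r from -0.708 with Sstr3 to 0.622 with Sstr4). These correlations describe 7 samples and include the difference between groups. Of all genes tested, those whose pattern was most like that of Drd2 were Stab2 (r = 0.984), a scavenger receptor of sinusoidal endothelium, Adgrg1 (r = 0.981), an adhesion G protein-coupled receptor, and Slc35c2 (r = 0.979). Stab2 had the same split, 7.90 and 7.86 in the low-Xist heterozygous samples against 7.29 and 6.87 in the high-Xist ones, 6.79 in the homozygous sample, and 6.92 and 6.79 in normal samples. Nearest to Sstr2 were Tox2, Tnfrsf12a and Slit3 (r = 0.977 to 0.978), and nearest to Sstr1 were Lrrn4cl, Bub3 and Ccdc71 (r = 0.977 to 0.981). For Sstr3 (1450577_at) they were Plcd1 (r = 0.998), a phospholipase C, Pip5k1b (r = 0.997), a kinase that makes its substrate, and Tns1 (r = 0.994). For Sstr5 they were B3gnt7, Txndc17 and S100a10 (r = 0.991 to 0.992), and for Sstr4 Tspyl4, Nadk2 and Kdm1b (r = 0.981 to 0.990). With 12316 genes compared over 7 samples, values of this size are found for every receptor.

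On the ligand side, 3 enzymes of dopamine metabolism were lower in heterozygous tumors. Of 8 genes measured for the ligands and for dopamine synthesis, transport and breakdown, 3 were called lower with no filter on low values and 0 higher, where 3.44% of all 18193 genes were called lower. Ddc, which turns L-DOPA into dopamine, gave 3.85, 4.49, 3.98 and 5.60 in heterozygous samples, 5.43 in the homozygous sample, and 6.70 and 6.99 in normal samples. It passed the filter through both normal arrays and 1 tumor array. Its log2 difference was -2.36 for heterozygous tumors (SE 0.46, adjusted p = 0.0108 from limma) and -1.41 for the homozygous sample (SE 0.64, adjusted p = 0.307). Maob, a monoamine oxidase that breaks dopamine down, gave 6.70, 7.04, 6.37 and 7.13 in heterozygous samples, 7.07 in the homozygous sample, and 9.08 and 9.11 in normal samples. Every tumor sample lay about 2 units below normal pituitary, with differences of -2.28 (SE 0.21, adjusted p = 0.000721) and -2.02 (SE 0.30, adjusted p = 0.0242). Tyrosine hydroxylase (Th), the rate-limiting enzyme of dopamine synthesis, lay under the median of all values in every sample and was tested only without the filter. It gave 4.66, 4.29, 4.70 and 4.28 in heterozygous samples, 5.42 in the homozygous sample, and 5.71 and 5.62 in normal samples, a log2 difference of -1.18 for heterozygous tumors (SE 0.15, adjusted p = 0.00286 from limma with no filter). The related Maoa differed by 0.41 (adjusted p = 0.0534), and cortistatin (Cort), a peptide that binds the somatostatin receptors, by -0.24 (adjusted p = 0.273). Somatostatin itself (Sst, 4.34 to 4.71 over all samples), the vesicle transporter Slc18a2 (5.09 to 5.72) and the dopamine transporter Slc6a3 (3.73 to 4.03) did not pass the filter and were not called without it. None of the 3 other dopamine receptors measured passed it or was called without it: Drd1 lay at 2.92 to 3.59, Drd3 at 2.97 to 3.22 and Drd4 at 3.83 to 5.56.

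Downstream of the receptors, single genes were called in heterozygous tumors. Of 67 measured genes for inhibitory G protein subunits, receptor regulators, adenylyl cyclases and potassium channels, and growth arrest, 6 were higher and 3 lower with no filter (13.4%, against 7.24% of all genes, of which 3.8% higher and 3.44% lower), with a median log2 difference of 0.056 against -0.030 for all genes. With the filter 7 were higher and 3 lower of 59 tested (16.9%, against 10.1% of all genes tested), Adcy7 being the gene gained. Among 19 G protein subunits 1 was called: Gnb4, a beta subunit, was 1.51 higher on the log2 scale (SE 0.21, adjusted p = 0.00275 from limma). Gnai1, the inhibitory alpha subunit picked here after its values were seen, differed by 0.82 (adjusted p = 0.0109), under 2-fold. The other alpha subunits of the list, Gnai2 (-0.087), Gnai3 (-0.14), Gnao1 (-0.30) and Gnaz (0.16), were not called either. Among 26 regulators, Arrb2 (1.11, adjusted p = 0.00198), the beta-arrestin that takes D2 and somatostatin receptors off the membrane, Rgs20 (1.27, adjusted p = 0.0169) and Rgs16 (1.06, adjusted p = 0.00957), which speed the turning off of G proteins, were higher. Rgs20 passed the filter through heterozygous arrays only, and without the filter its adjusted p was 0.0204. Rgs2 was lower by a log2 difference of -1.04 (adjusted p = 0.0304).

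The adenylyl cyclases, which these receptors inhibit, were called in both directions. Over all genes, 3.8% were called higher and 3.44% lower in heterozygous tumors with no filter (7.24% in either direction). Of 13 measured cyclases and GIRK potassium channels, Adcy1 (1.24, adjusted p = 0.00529 from limma) was higher in heterozygous tumors, Adcy7 (1.12) had an adjusted p of 0.0436 with the filter and 0.0533 without it, and Adcy2 (-2.29, adjusted p = 0.000774) and Adcy5 (-2.04, adjusted p = 0.00857) were lower. Adcy5 gave 6.09, 6.07, 6.11 and 7.37 in heterozygous samples, 7.51 in the homozygous sample, and 8.53 and 8.36 in normal samples, so that heterozygous sample 7-8 lay near the homozygous one. None of the measured GIRK channel genes was called. Of 9 genes for growth arrest 1 was called, a count near the share of all genes. It was Cdkn1a, the cyclin-dependent kinase inhibitor p21, which was 2.24 higher (SE 0.49, adjusted p = 0.0179 from limma). Its log2 signal was 10.45, 10.74, 8.76 and 9.88 in heterozygous samples, 8.83 in the homozygous sample, and 7.70 and 7.72 in normal samples. In the homozygous sample 0 of the 67 were called by limma with no filter, where 1.99% of all genes were, and 15 had an unadjusted p under 0.05, against 17.7% of all. Against heterozygous tumors 0 were called as well, where 0.286% of all genes were, and 13 had an unadjusted p under 0.05, against 9.97% of all.

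**Figure D4:**
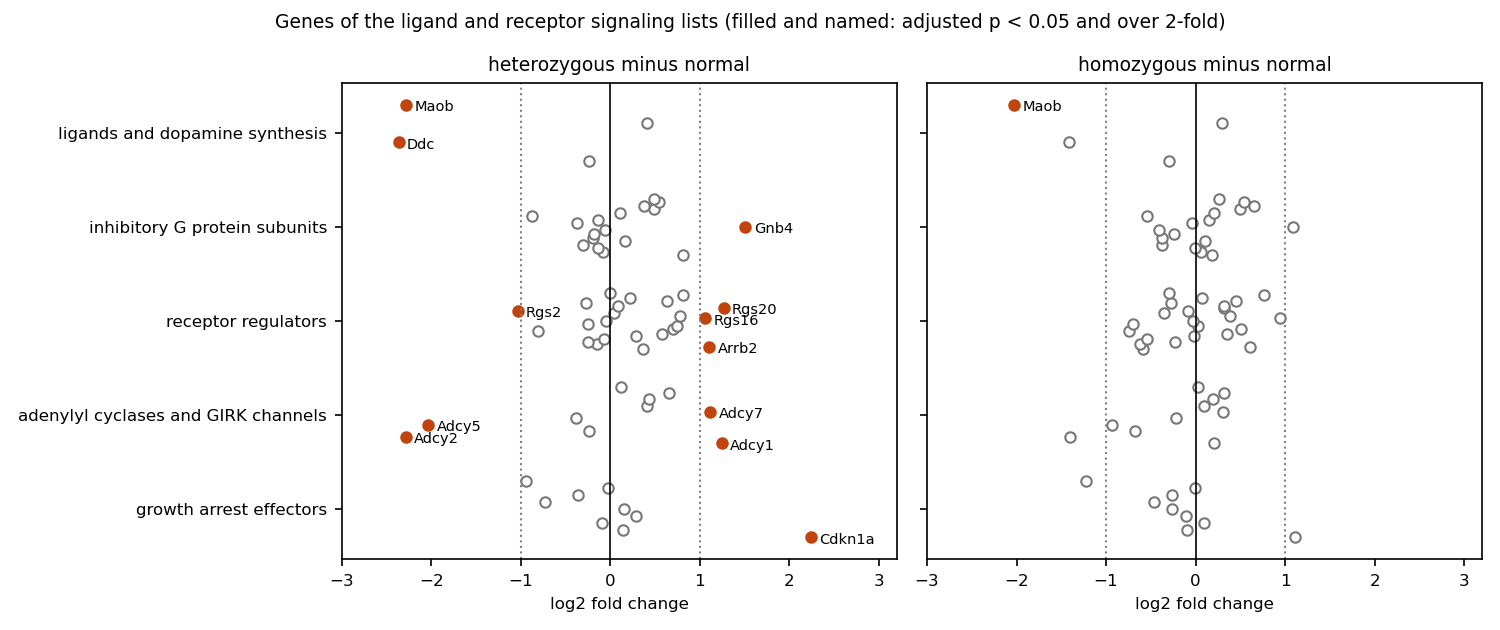
Log2 difference from normal pituitary (horizontal axis, fit with the filter) of each tested gene of 5 ligand and signaling lists (vertical axis) in heterozygous tumors (left) and the homozygous sample (right). Each point is 1 gene, filled and named where the adjusted p was under 0.05 and the difference over 2-fold, and dotted lines mark 2-fold. Called genes lie on both sides of 0 on the left, and Maob alone is called on the right.

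Markers of hormone cells and of other cell types differed in the same samples. The counts are of measured markers with no filter, under which 3.8% of all genes were called higher and 3.44% lower in heterozygous tumors, and 0.945% higher and 1.04% lower in the homozygous sample. Of the Pit1 lineage, whose somatotrophs and thyrotrophs answer to somatostatin, 3 of 5 markers were lower in heterozygous tumors and the homozygous sample had none called: Ghrhr differed by -3.13 (adjusted p = 0.00805 from limma), Tshb by -3.90 (adjusted p = 0.0191) and Trhr by -3.27 (adjusted p = 0.000290). With 1 sample, the homozygous side differed from normal by -3.22 for Ghrhr, -1.44 for Tshb, -0.83 for Trhr, -0.14 for Gh and 0.32 for Prl. The summed log2 level of the 5 markers, mostly Gh and Prl, was 15.95 to 15.96 in normal pituitary, 14.84 to 15.90 in heterozygous samples and 15.94 in the homozygous one. For gonadotrophs, all 4 markers fell in heterozygous tumors. Nr5a1, which passed the filter through both normal arrays and 1 homozygous array, was alone of these also called in the homozygous sample. The gonadotroph sum was 13.68 in both normal samples, 7.40 to 9.85 in heterozygous samples and 9.97 in the homozygous one. Of 5 corticotroph markers, Crhr1 (-1.44, adjusted p = 0.000793) and Neurod1 (-2.84, adjusted p = 0.000200) were lower in heterozygous tumors. Both were higher in the homozygous sample than in heterozygous tumors (2.25 and 2.80), as was Trhr (2.43), where 0.236% of all genes were called higher. Crhr1, Neurod1 and Trhr had 0 heterozygous arrays at the median of all values and passed the filter through normal and homozygous arrays only. With no filter their adjusted p in heterozygous tumors was 0.000755 (Crhr1), 0.000184 (Neurod1) and 0.00027 (Trhr) from limma. No detection calls were used, so the size of these differences is less certain than their direction.

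Pax7, the selector of the melanotroph fate and the 1 melanotroph marker measured, was 1.48 higher for heterozygous tumors (adjusted p = 0.00262 from limma) and differed by 0.66 for the homozygous sample (adjusted p = 0.273). It gave 11.47, 11.28, 11.18 and 10.84 in heterozygous samples, 10.38 in the homozygous sample, and at most 9.92 in normal samples, with heterozygous sample 7-8, also the lowest for Drd2, the lowest of the 4. Of 7 macrophage markers, 5 were higher in heterozygous tumors, against the 3.8% of all genes, and Lyz2 and Ptprc were also called in the homozygous sample. The macrophage sum was 9.42 to 9.68 in normal pituitary, 11.73 to 12.70 in heterozygous samples and 11.26 in the homozygous one. Of 4 markers of posterior lobe glia 1, Slc1a3, was lower in both genotypes (-3.23 and -2.51), at 8.78 and 8.87 in normal samples, 5.43 to 5.71 in heterozygous samples and 6.31 in the homozygous sample. Of 4 fibroblast markers 3 were lower in heterozygous tumors, against the 3.44% of all genes, with sums of 11.45 to 11.69 in normal samples, 9.96 to 10.87 in heterozygous samples and 10.51 in the homozygous sample. Of 6 endothelial markers 1, Tek, was lower there, with sums of 9.86 to 9.89, 9.29 to 9.80 and 10.08 in the same order. Of 3 stem and folliculostellate markers and 2 erythrocyte markers none was called. The part of these cell types in the receptor differences was not tested.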

How the data were processed

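Total RNA was hybridized to 12 arrays of the Affymetrix type Mouse Genome 430 2.0. The authors deposited log2 values made by Robust Multichip Average (RMA), for which the labels name Affymetrix Expression Console with no version and the methods name GeneSpring GX. RMA puts all arrays on 1 distribution, so a shift shared by all genes is not visible, and the number of arrays limits the precision. Detection calls were not used here.

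Numbered pairs of tumor arrays were averaged, and limma 3.58.1 in R 4.3.3 fitted 3 group means over 7 samples (4 residual degrees of freedom) to 24486 probe sets at or above the overall median of 5.74 on at least 2 arrays. P-values were adjusted by Benjamini-Hochberg over all of them. A probe set was called at an adjusted p under 0.05 and a difference over 2-fold, the study's thresholds. For a gene list, the brightest probe set stood for a gene, and members called were counted with no filter on low values. The fit was also run on simulated data with shifts in the heterozygous group only. Recovery of differences in the homozygous sample was not tested.

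The receptors and gene lists were chosen with earlier results of these data known. Named genes are the receptors, Pomc, Xist, the 3 genes most like each receptor and up to 4 called genes of each list with the largest differences, and all ligand and dopamine receptor genes. The inhibitory alpha subunits, Gh and Prl were named outside this rule. Probe annotation named 1 gene for 34945 probe sets, several for 932 and none for 9160. Alternatives were arrays as separate samples, a pair or replicate block, other filters, scalings, tests and probe set means, Xist as a covariate and leaving out each sample. Contrasts among samples alike in Xist were added after the data were seen.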

Additional observations from a re-analysis of the deposited data

How the results depend on the processing

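In heterozygous tumors the 7 tested receptor probe sets kept their sign in all alternatives. The count of 5 called ranged from 3 to 5 with 1 sample left out, with 3 without normal sample 1, and from 4 (one-way test, mean of the probe sets of a gene) to 7 (replicate block) otherwise. In the homozygous sample the count of 2 ranged from 0 to 3: it was 3, with Sstr1 gained, with 12 arrays as separate samples, the replicate block and the one-way test, 1 without heterozygous sample 3-4, 0 without either normal sample and 1 when the probe sets of a gene were averaged. Between genotypes the count was 0 with each sample left out, 1 (Sstr4 1457440_at) with 12 arrays as separate samples, with the pair as a random block and in the one-way test, and 3 with the replicate block. For the homozygous sample against normal pituitary, the pair as a random block kept the count at 2, with Sstr1 gained and Sstr3 1441603_at lost. Pairs of repeat arrays counted as samples overstate the number of samples.

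Array numbers did not pair the samples: differences between arrays 1 and 2 correlated at 0.068 between heterozygous and homozygous, -0.023 between heterozygous and normal and -0.0026 between homozygous and normal arrays. The replicate block in effect compares only the arrays numbered 1 and 2, so that its heterozygous side is sample 1-2 alone. It gave Drd2 a difference of 1.31 in heterozygous tumors.

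Signs turned in the homozygous sample against normal pituitary for Drd2, Sstr2 and Sstr4. Drd2, 0.0054 as reported, was -0.0116 with quantile normalization repeated, -0.0480 with median centring, -0.0590 with housekeeping centring and -0.0693 to 0.0801 with 1 sample left out, and it was 0.83 (adjusted p = 0.234) with Xist as a covariate. Sstr2, -0.61 as reported, was 0.0100 with Xist as a covariate. Both normal samples had low Xist and the homozygous sample high Xist. The Xist slope thus came almost wholly from the heterozygous samples, and these covariate values cannot tell Xist from genotype. Sstr4 1457440_at was -0.15 to 0.33 with 1 sample left out, and -0.13 as the mean of its probe sets. Sstr3 1450577_at passed 2-fold in heterozygous tumors under all 3 scalings (at most -1.04). Leaving out the homozygous sample was not possible, since it is the only one.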
